A study of Homo sapiens with 50 samples.

Results

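The sirtuin hairpins were the 37 short hairpin RNAs (shRNAs) whose named target was exactly 1 of the 7 genes SIRT1 to SIRT7, out of 3443 hairpins in the screen. There were 7 against SIRT2 and 5 against each of the other genes. The screen asked which chromatin regulators limit how long IMR90 can be passaged; IMR90 is an established human cell line of lung fibroblasts whose growth ends in replicative senescence after a finite count of population doublings (PD). Proliferating cells carried pooled lentiviral hairpins at a multiplicity of infection of 0.3, were kept at 3% oxygen, and were passaged until growth ended. The integrated hairpins were amplified from genomic DNA and sequenced at PD40, PD45, PD50, PD55 and PD60, with PD40 as the proliferating baseline and PD60 as senescence. Each time had 10 plates, 1 for each pairwise mixture of the initial virus pools, and every group held cells with hairpins, so no uninfected group was compared.

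The deposited values were 1 column per time, not 1 per plate. There was therefore no replicate at any time and no test was made: intervals are exact 95% Poisson intervals, which cover counting error only, and tags amplified by PCR are not independent molecules. Neither the plates behind a hairpin's tags nor the knockdown of its target was measured here. As the readout was DNA, the labelled cell type could not be set against expressed markers. Abundance is given as counts of tags scaled to the column total (CPM, counts per 1000000), and the columns held 8270745 to 11505688 tags.

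Sirtuins are enzymes that use NAD+ to remove acetyl and other acyl groups from lysines, or to transfer ADP-ribose, and so tie protein modification to the metabolic state of the cell. SIRT1, SIRT6 and SIRT7 are found mainly in the nucleus, SIRT2 mainly in the cytosol, and SIRT3, SIRT4 and SIRT5 in mitochondria. The family is known for its links to ageing and stress resistance, and in human fibroblasts loss of SIRT6 is known to disturb telomeres and bring on early senescence. In the screen, a hairpin that slows senescence should gain in share on passage and one that harms growth should lose.

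At PD60, 1 sirtuin hairpin was far more abundant than at PD40 and the other 36 were over 2-fold lower. The exception was SIRT1 hairpin TRCN0000018979. With it, the family held 1.96% of all tags at PD60, against 1.21% at PD40. Without it, the other 36 hairpins held 0.0264% at PD60, against 1.17% at PD40, 44.4-fold lower (42.5 to 46.3). Over the 5 times, the 37 hairpins summed to 12132, 10685, 7290.3, 4722 and 19602 CPM. The sum without TRCN0000018979 was 11729, 9764, 6358, 2096 and 264 CPM. The family total was thus lower at each time to PD55 and highest at PD60, whereas the total of the 36 was lower at each successive time.

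Loss on this scale was general in the library. A hairpin was counted as over 2-fold lower or higher from log2 of CPM plus a pseudocount of 1, which understates the loss of hairpins that started low, and all 37 sirtuin hairpins had the required 10 tags in either column. At PD45, 22 of the 37 (59.5%) were over 2-fold lower, against 63.2% of all hairpins, and 2 (5.41%) were over 2-fold higher, against 5.73%. At PD50, 29 (78.4%) were over 2-fold lower, against 81.9% of all hairpins, and 3 (8.11%) were higher, against 4.94%. At PD55, 34 (91.9%) were lower, against 91.7%, and 1 (2.70%) was higher, against 2.92%. At PD60, 36 (97.3%) were lower, against 95.3%, and 1 (2.70%) was higher, against 2.28%. The family's counts were therefore close to the background at every time. Across PD45, PD50, PD55 and PD60, in that order, the family's median log2 fold change was -1.32, -2.90, -4.80 and -6.35. Over all hairpins it was -1.63, -3.46, -4.93 and -5.86 at the same times. The family's median thus lay above that of the library up to PD55 and below it at PD60, as it did under each of the 4 scalings. These medians were not matched for starting abundance, which differed as given below.

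At PD60, 13 of the 37 sirtuin hairpins (35.1%) had 0 tags, against 43.8% of all hairpins; a count of 0 there allows up to 0.363 CPM. None was at 0 at PD40 or PD45. There were 2 (5.41%) with 0 tags at PD50, against 9.15% of all hairpins, and 5 (13.5%) at PD55, against 18.0%. Starting abundance bounds how far a loss can be seen, and sirtuin hairpins started somewhat high, with a median of 1429 tags at PD40 against 1019 over all hairpins. When the library was split into 5 equal classes of PD40 abundance, the 1 sirtuin hairpin of the lowest class was at 0 at PD60, against 84.5% of all hairpins there. In the second class it was 6 of 7 (85.7%), against 69.8%, and in the middle class 5 of 10 (50.0%), against 45.7%. In the next higher class it was 1 of 8 (12.5%), against 19.2%, and in the highest class 0 of 11, against 1.45%. The family's share at 0 was thus above that of the library in the 3 lower classes and below it in the upper 2, on few hairpins each. From the lowest class to the highest, the family's median log2 fold change at PD45 was -3.82, -3.39, -1.85, -1.47 and -0.34. Over all hairpins of each class it was -2.81, -2.47, -1.55, -1.09 and -0.43. At PD60 the family's medians were -5.20, -5.59, -6.88, -7.02 and -5.89, against -4.38, -5.75, -6.62, -7.19 and -6.24. At PD45 the family's median was thus below that of the library in every class but the highest. At PD60 it was below in the lowest and middle classes and above in the others. The order of the unmatched medians was therefore reversed in most classes at both times. With counts under 3 raised to 3 and no pseudocount, the median log2 ratio of PD60 to PD40 was -7.74 for the family and -7.12 for all hairpins.

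Directions depend on the scaling. With edgeR's TMM factors the median log2 fold change of all hairpins at PD60 moved by 4.02, to -1.84, and that of the sirtuin hairpins was -2.46. The pseudocount of 1 was added after scaling, so hairpins with few tags moved less than the factors alone would move them. With TMM factors SIRT1 TRCN0000018979 moved from 5.58 to 12.4, but SIRT1 TRCN0000018981, at 0 tags at PD60, from -6.65 to -3.6. On that scale 24 sirtuin hairpins were over 2-fold lower (64.9% of 37, against 64.4% of all hairpins), 6 were over 2-fold higher (16.2%, against 18.8%) and 7 lay between. Those above 0 were 11 (29.7%, against 25.2% of all hairpins), so these counts too were near the background: SIRT1 TRCN0000018979, SIRT2 TRCN0000010435, TRCN0000010436 and TRCN0000040218, SIRT3 TRCN0000038890 and TRCN0000038891, SIRT4 TRCN0000018944, TRCN0000018945 and TRCN0000018947, SIRT5 TRCN0000018543 and SIRT7 TRCN0000020258. Every comparison below is relative to the column total unless TMM is named, so "lower" means a smaller share of the tags and not fewer cells. Fewer cells with a hairpin and a larger total of other hairpins cannot be told apart. A scaling factor alone would move every hairpin equally, so changes in the order or rank of genes between scalings come through the pseudocount.

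SIRT1 encodes the nuclear deacetylase of histones and of many transcription regulators. Its hairpin TRCN0000018979 had 3480, 8084, 7906, 30219 and 159935 tags at PD40 to PD60. In CPM these were 403, 920.5, 932, 2626 and 19337 CPM. Its abundance was above that of PD40 at PD45, PD50, PD55 and PD60. At PD55 it was 1 of 2 sirtuin hairpins above PD40, against 4.91% of all hairpins, and at PD60 it was the 1 sirtuin hairpin, against 3.25%. It started in the highest class of PD40 abundance, where 1 of 11 sirtuin hairpins and 6.24% of all hairpins were over 2-fold higher at PD60. At PD60 TRCN0000018979 was also higher under each of the 4 scalings. The ratio to PD40 was 2.28 (2.19 to 2.37) at PD45, 2.31 (2.22 to 2.41) at PD50, 6.51 (6.29 to 6.74) at PD55 and 47.9 (46.4 to 49.6) at PD60. Between adjacent times, PD50 over PD45 was 1.01 (0.982 to 1.05), an interval that holds 1. The other steps were larger: PD55 over PD50 was 2.82 (2.75 to 2.89) and PD60 over PD55 7.36 (7.27 to 7.45). Its rank by abundance among the 3443 hairpins was 587, 223, 180, 58 and 16 across the 5 times. By log2 fold change at PD60 it stood at place 6 of 3418, at 5.58.

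The other 4 SIRT1 hairpins were over 2-fold lower by PD50 and had 3 tags or fewer at PD60. TRCN0000018980 started level with the expanding hairpin and had 413, 504, 149, 23.6 and 0.363 CPM. Its ratio to PD40 was 1.22 (1.17 to 1.27) at PD45 and 0.361 (0.339 to 0.385) at PD50, and its 3 tags at PD60 gave a ratio of 0.000878 (0.000181 to 0.00257). So TRCN0000018980 and TRCN0000018979 had 0.363 and 19337 CPM at PD60, against 413 and 403 CPM at PD40. TRCN0000018981 had 99.5, 40.9, 12.5, 2.61 and 0 CPM. By the limit of its exact interval, it was at least 223-fold lower at PD60 than at PD40. TRCN0000018983 had 63.3, 5.12, 0.354, 0.0869 and 0 CPM, with a bound of at least 141-fold lower. TRCN0000018982 had 54.5, 0.911, 0.236, 0 and 0 CPM, was lost earliest, with 8 tags at PD45, and was at least 122-fold lower. These 3 hairpins were each over 2-fold lower from PD45 on. Together the 4 summed to 3 tags at PD60, against 5438 at PD40. TRCN0000018979 held 39.0%, 62.6%, 85.2% and 99.0% of SIRT1 tags up to PD55, and all but 3 tags at PD60.

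Averaged over hairpins, SIRT1 had a log2 fold change of -1.61 (SD 2.51) at PD45, -2.84 (SD 2.86) at PD50, -3.57 (SD 3.58) at PD55 and -4.22 (SD 5.56) at PD60 (SD over 5 hairpins, which are not replicate cultures). The SD at PD60 was the widest of the 7 genes, and without TRCN0000018979 the mean was -6.67 (SD 1.11, 4 hairpins). The summed CPM of the gene, by contrast, was 18.7 (18.3 to 19.1) times that at PD40. The mean placed SIRT1 at rank 90 of the 631 genes with at least 3 hairpins at PD60, and without TRCN0000018979 at rank 555, so its place rested on that hairpin. Under the 3 other scalings, with that hairpin, the rank was 135 to 159.

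SIRT6 encodes a nuclear enzyme that deacetylates H3K9 and H3K56 and acts in DNA repair and at telomeres. Its hairpins were the lowest of the family by mean at PD45, PD50 and PD55, although at PD55 SIRT5 was lower under each of the 3 other scalings, at -1.63 against -1.46 for SIRT6 with TMM factors. The 5 hairpins summed to 811, 555, 224, 18.8 and 2.90 CPM. By PD60 the sum was 24 tags, against 6992 at PD40, 279-fold lower (188 to 436). TRCN0000050474 set most of it, with 354, 493, 202, 15.1 and 2.66 CPM. That hairpin was 1.39 (1.33 to 1.46) times its PD40 level at PD45 and 133-fold lower (87.8 to 213) at PD60. The other 4 were over 2-fold lower already at PD45. TRCN0000050476 had 144, 39.6, 15.0, 2.09 and 0.121 CPM, with 1 tag at PD60 and a ratio of 0.000840 (2.12e-05 to 0.00469). TRCN0000050473 had 139, 15.9, 4.84, 0.956 and 0.121 CPM, likewise with 1 tag and a ratio of 0.000870 (2.20e-05 to 0.00486). Both were in the middle class of PD40 abundance. TRCN0000050477 had 126, 5.12, 2.48, 0.521 and 0 CPM and was at least 282-fold lower at PD60. TRCN0000050475 had 47.3, 1.59, 0, 0.0869 and 0 CPM, its single late tag at PD55 following 0 tags at PD50. It was at least 106-fold lower at PD60.

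The SIRT6 mean log2 fold change was -2.60 (SD 2.00) at PD45, -3.87 (SD 1.94) at PD50, -5.61 (SD 0.75) at PD55 and -6.63 (SD 0.61) at PD60, over 5 hairpins. Its rank among 631 gene means was 551, 472, 549 and 552 at these times. Leaving out each hairpin in turn gave ranks of 466 to 623 at PD45 and 540 to 579 at PD60. With TMM factors the mean at PD60 was -2.44 and the rank 541, and none of the 5 hairpins was above 0 there, against 25.2% of all hairpins.

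SIRT7 encodes the nucleolar sirtuin, which deacetylates H3K18 and promotes transcription of ribosomal RNA genes. Its hairpins summed to 605, 498, 191, 36.2 and 2.90 CPM, and the sum at PD60 was 208-fold lower (140.0 to 326) than at PD40. TRCN0000020258, the most abundant, had 185, 329.7, 148, 28.9 and 2.06 CPM. It was 1.78 (1.68 to 1.90) times its PD40 level at PD45, below it from PD50, and 89.9-fold lower (56.0 to 155) at PD60, although with TMM factors its log2 fold change at PD60 was 0.34. TRCN0000020254 kept its level to PD45 and was then lost, at 121, 112, 16.6, 0.174 and 0 CPM. Its ratio to PD40 was 0.928 (0.850 to 1.01) at PD45, an interval that holds 1. At PD60 it was at least 271-fold lower. The remaining 3 were over 2-fold lower from PD45. TRCN0000020257 had 173, 29.8, 16.2, 5.30 and 0.725 CPM and was 239-fold lower (109 to 651) at PD60. TRCN0000020255 had 90.2, 24.0, 9.67, 1.83 and 0.121 CPM, and its 1 tag at PD60 gave a ratio of 0.00134 (3.39e-05 to 0.00749). TRCN0000020256 had 35.7, 1.59, 0, 0 and 0 CPM, the lowest start of the family at 308 tags. Its bound was correspondingly weak, at least 79.6-fold lower. The SIRT7 mean log2 fold change was -1.49 (SD 1.86) at PD45, -2.95 (SD 1.75) at PD50, -4.87 (SD 1.46) at PD55 and -6.21 (SD 0.68) at PD60, over 5 hairpins, with ranks of 276, 263, 381 and 481 among 631 genes at these times.

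SIRT2 encodes the mainly cytosolic sirtuin, which deacetylates tubulin and, in mitosis, H4K16. Its 7 hairpins began with more tags than those of any other sirtuin, 0.640% of the column, and were all over 2-fold lower by PD55. They summed to 6398, 5758, 3784, 1269.6 and 218 CPM, and the sum at PD60 was 29.4-fold lower (28.1 to 30.8) than at PD40. TRCN0000010436 dominated this sum. It was at rank 22 of the library at PD40 and had 32516, 39359, 26635, 13149 and 1644 tags at the 5 times, or 3769, 4481, 3141, 1143 and 199 CPM. Its ratio to PD40 was 1.19 (1.17 to 1.21) at PD45, 0.833 (0.820 to 0.847) at PD50 and 0.303 (0.297 to 0.309) at PD55, and at PD60 it was 19.0-fold lower (18.0 to 19.9). This was the smallest loss at PD60 among the 36 hairpins, at a log2 fold change of -4.24, and with TMM factors it was 2.60. The hairpin held 91.4% of SIRT2 tags at PD60, against 58.9% at PD40.

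A pair of SIRT2 hairpins kept an intermediate course. TRCN0000010435 had 438, 333, 255, 55.3 and 7.50 CPM and was 58.5-fold lower (45.5 to 76.4) at PD60. TRCN0000040218 had 625, 455, 269.7, 53.1 and 9.55 CPM and was 65.4-fold lower (52.4 to 82.8). Both stayed within 2-fold of PD40 at PD45, and with TMM factors their log2 fold changes at PD60 were 0.96 and 0.81. The other 4 were lost to 6 tags or fewer. TRCN0000040219 had the highest start of these 4 and the lowest log2 fold change of the family, -8.81, with 721, 209.8, 37.1, 4.95 and 0.605 CPM. It was 1192-fold lower (510.5 to 3672) at PD60. TRCN0000040222 had 426, 203, 46.7, 7.74 and 0.363 CPM, and 3 tags at PD60 gave a ratio of 0.000852 (0.000176 to 0.00249). TRCN0000040221 had 288, 19.9, 6.37, 1.56 and 0.725 CPM and was 397-fold lower (182 to 1083). It differed from the rest in timing, being 14.5-fold lower at PD45 already. TRCN0000040220 had 131, 56.5, 27.7, 4.17 and 0 CPM and was at least 293-fold lower at PD60. The SIRT2 mean log2 fold change was -1.20 (SD 1.31) at PD45, -2.45 (SD 1.87) at PD50, -4.61 (SD 1.98) at PD55 and -6.77 (SD 1.60) at PD60, over 7 hairpins. Its rank among 631 genes was 203, 170, 318 and 565 at these times, so the place at PD60 was lower than at PD50. At PD60 the rank was 289 with TMM factors, 277 with DESeq2's size factors and 394 without the 50 most abundant hairpins in the totals, each again lower than at PD50.

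SIRT3 encodes the main deacetylase of the mitochondrial matrix. None of its 5 hairpins was above its PD40 level at any later time relative to column totals. Of all hairpins, 17.9% were so at PD45 and 3.25% at PD60. With TMM factors 1 of the 5 was at PD45 and 3 were at PD50 and at PD55, against 40.2%, 38.2% and 33.0% of all hairpins. The SIRT3 hairpins summed to 1822, 919, 362, 139 and 25.1 CPM, and at PD60 the sum was 72.5-fold lower (63.2 to 83.5). TRCN0000038891 was the most abundant, with 735, 580.5, 155, 41.6 and 16.6 CPM, and was 44.4-fold lower (37.5 to 52.9) at PD60. TRCN0000038890 had 273, 109, 108, 76.3 and 7.13 CPM. Its level was nearly flat from PD45 to PD50 (PD50 over PD45 0.991, interval 0.904 to 1.09). It lost most of its remaining share between PD55 and PD60 (PD60 over PD55 0.0935, interval 0.0706 to 0.122). At PD60 it was 38.3-fold lower (29.6 to 50.5). With TMM factors both hairpins were above 0 at PD60, at log2 fold changes of 1.36 and 1.56. TRCN0000038892 had 358, 119.8, 76.7, 16.1 and 1.09 CPM and was 329-fold lower (173 to 721). TRCN0000038893 had 290.4, 93.8, 20.3, 4.35 and 0.363 CPM, and its 3 tags at PD60 gave a ratio of 0.00125 (0.000257 to 0.00365). TRCN0000038889 was lost early, with 166, 15.6, 2.36, 0.608 and 0 CPM, and was at least 371-fold lower at PD60. The SIRT3 mean log2 fold change was -1.64 (SD 1.08) at PD45, -3.04 (SD 1.70) at PD50, -4.56 (SD 1.85) at PD55 and -6.60 (SD 1.26) at PD60, over 5 hairpins, with ranks of 322, 281, 308 and 548 among 631 genes. At PD60 the rank was 284 with TMM factors, 279 with DESeq2's size factors and 371 without the 50 most abundant hairpins in the totals.

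SIRT4 encodes a mitochondrial sirtuin with weak deacetylase activity, known for ADP-ribosylating glutamate dehydrogenase and for restraining glutamine use. Together its hairpins had a larger share at PD45 and PD50 than at PD40, and a far smaller one at PD60. The 5 summed to 904, 1216, 1568, 598 and 13.9 CPM. The sum was 1.34 (1.31 to 1.38) times its PD40 level at PD45, 1.73 (1.69 to 1.78) times at PD50 and 0.661 (0.640 to 0.683) times at PD55. At PD60 it was 65.0-fold lower (54.1 to 78.9). At PD45 and at PD50, 3 of the 5 hairpins were above their PD40 level, against 17.9% of all hairpins at PD45 and 10.1% at PD50. Of the other 32 sirtuin hairpins, 6 were so at PD45 and 1 at PD50.

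These 3 hairpins differed in timing. TRCN0000018944 had 815, 2653, 2418, 1029 and 32 tags, or 94.5, 302, 285, 89.4 and 3.87 CPM. It was 3.20 (2.95 to 3.46) times its PD40 level at PD45 and 3.02 (2.79 to 3.27) times at PD50, at PD55 the ratio was 0.947 (0.863 to 1.04), an interval that holds 1, and at PD60 it was 24.4-fold lower (17.2 to 35.9). TRCN0000018945 reached its highest level later, with 3848, 4374, 8725, 5357 and 67 tags, or 446, 498, 1029, 466 and 8.10 CPM. Its ratio was 1.12 (1.07 to 1.17) at PD45, 2.31 (2.22 to 2.40) at PD50 and 1.04 (1.00 to 1.09) at PD55. PD60 over PD55 was 0.0174 (0.0135 to 0.0221), and at PD60 it was 55.1-fold lower (43.3 to 71.2) than at PD40. It was the 1 sirtuin hairpin with its highest CPM at PD50. TRCN0000018947 had 205, 369, 247, 41.8 and 1.93 CPM, its ratio being 1.80 (1.70 to 1.91) at PD45 and 1.20 (1.13 to 1.28) at PD50, and was 106-fold lower (65.2 to 186) at PD60. With TMM factors these 3 were above 0 at PD60, at 2.13, 1.05 and 0.11. The other 2 did not share the early course. TRCN0000018946 had 45.7, 24.3, 5.42, 0.695 and 0 CPM and was at least 102-fold lower at PD60. TRCN0000018948 had 113, 22.0, 1.42, 0 and 0 CPM and was at least 252-fold lower.

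The SIRT4 mean log2 fold change was -0.10 (SD 1.55) at PD45, -1.07 (SD 3.05) at PD50, -2.78 (SD 3.00) at PD55 and -5.68 (SD 0.93) at PD60, over 5 hairpins. Its sign depends on the scaling: with TMM factors the mean was 1.03, 1.70 and 1.55 at PD45, PD50 and PD55, and with DESeq2's size factors 0.75, 1.18 and 1.14, while at PD60 it was below 0 under both, at -0.62 and -0.67. It was the highest of the 7 genes at PD45, PD50 and PD55 under each of the 4 scalings. Among 631 genes it ranked 20, 24, 44 and 339 at the 4 later times. Leaving out each hairpin in turn gave ranks of 5 to 63 at PD45, 4 to 79 at PD50 and 16 to 116 for PD55. Under the 3 other scalings the rank was 20 to 22 at PD45 and at PD50, 43 to 49 for PD55 and 213 to 251 for PD60. The medians of the 631 gene means were -1.61, -3.21, -4.59 and -5.58 at the 4 times. The SD over SIRT4 hairpins, 1.55 at PD45 and 3.05 at PD50, exceeded the distance of its mean from these medians.

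SIRT5 encodes the mitochondrial sirtuin that removes succinyl, malonyl and glutaryl groups. Its hairpins had the smallest total of the family at every time. They summed to 558, 268, 66.7, 8.60 and 1.69 CPM, with 14 tags at PD60 against 4817 at PD40, 329.9-fold lower (196 to 604). TRCN0000018547 had 254, 141, 21.7, 2.87 and 0.242 CPM, and its 2 tags at PD60 gave a ratio of 0.000952 (0.000115 to 0.00344). TRCN0000018546 had 77.8, 103, 37.6, 5.04 and 0 CPM and was 1.32 (1.19 to 1.46) times its PD40 level at PD45. At PD60 it was at least 174-fold lower. It was the 1 SIRT5 hairpin above PD40 at any later time, against 17.9% of all hairpins at PD45. TRCN0000018545 had 118, 14.5, 1.89, 0 and 0.242 CPM, with 0 tags at PD55 and 2 at PD60, a ratio of 0.00205 (0.000248 to 0.00741). TRCN0000018544 had 40.2, 9.22, 5.07, 0.695 and 0 CPM and was at least 89.7-fold lower. TRCN0000018543 had 589, 6, 4, 0 and 10 tags, or 68.3, 0.683, 0.472, 0 and 1.21 CPM. It held most of the SIRT5 tags at PD60, although it had 6 tags at PD45 and 0 at PD55. At PD60 it was 56.5-fold lower (30.5 to 118), with a log2 fold change of 0.94 on the TMM scale. The SIRT5 mean log2 fold change was -2.15 (SD 2.19) at PD45, -3.64 (SD 1.89) at PD50, -5.47 (SD 1.29) at PD55 and -6.18 (SD 1.07) at PD60, over 5 hairpins, with ranks of 465, 416, 528 and 474 among 631 genes.

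Ordered by mean log2 fold change at PD60, the genes were SIRT1 (-4.22), SIRT4 (-5.68), SIRT5 (-6.18), SIRT7 (-6.21), SIRT3 (-6.60), SIRT6 (-6.63) and SIRT2 (-6.77). No pair of neighbours in this order differed by more than the larger of their SDs over hairpins, which ran from 0.61 for SIRT6 to 5.56 for SIRT1. The lower places depend on how the pseudocount weighs against the scaled counts. With it added after scaling by TMM factors, the order was SIRT1 (-0.02), SIRT4 (-0.62), SIRT3 (-1.08), SIRT2 (-1.09), SIRT7 (-1.79), SIRT5 (-1.89) and SIRT6 (-2.44). With counts under 3 raised to 3, SIRT6 was likewise lowest, at a mean log2 ratio of -7.95, against -7.67 for SIRT2. At PD50 the order was SIRT4 (-1.07), SIRT2 (-2.45), SIRT1 (-2.84), SIRT7 (-2.95), SIRT3 (-3.04), SIRT5 (-3.64) and SIRT6 (-3.87), and again no neighbours were further apart than the larger SD. By place in the cell, 14 of 15 hairpins against the nuclear sirtuins, 7 of 7 against SIRT2 and 15 of 15 against the mitochondrial sirtuins were over 2-fold lower at PD60, against 95.3% of all hairpins. At PD45, 4 of 15 nuclear, 1 of 7 SIRT2 and 4 of 15 mitochondrial sirtuin hairpins were above their PD40 level, against 17.9% of all hairpins. With so few hairpins, no place in the cell is shown to stand apart.

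The timing of the losses was set beside that of the library step by step, for hairpins with at least 10 tags in either column of the step. PD50 against PD45, 23 of 35 sirtuin hairpins (65.7%) were over 2-fold lower, against 71.4% of all hairpins. PD55 against PD50, it was 30 of 32 (93.8%), against 80.8%. The exceptions in that step were SIRT1 TRCN0000018979, which was higher, and SIRT3 TRCN0000038890, which stayed within 2-fold. PD60 against PD55, it was 22 of 26 (84.6%), against 73.2%. In that last step 2 were over 2-fold higher (7.69%, against 5.4% of all hairpins), SIRT1 TRCN0000018979 and SIRT5 TRCN0000018543. The share of sirtuin hairpins lost was thus below that of the library in the first 2 steps and above it in the last 2, without a test of that difference. These shares were not matched for starting abundance, which was higher for the sirtuin hairpins (median 1429 tags at PD40, against 1019). Of the 37, 28 (75.7%) had their highest CPM at PD40, 7 (18.9%) at PD45, 1 at PD50 and 1 at PD60. Over all hairpins, 80.4% were highest at PD40, 11.97% at PD45, 3.98% at PD50 and 1.95% at PD60.

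The zinc-dependent deacetylases HDAC1 to HDAC11, which remove acetyl groups from histones without NAD+, were also mostly lower at PD60. Of 54 hairpins with the required tags, 52 (96.3%) were over 2-fold lower at PD60, against 95.3% of all hairpins, and 1 (1.85%) was higher, against 2.28%, with a median log2 fold change of -5.85, against -6.35 for the sirtuins. The higher one was HDAC2 TRCN0000004823, with 231551 tags at PD60 against 2451 at PD40, and the lowest was HDAC11 TRCN0000017754, with 0 tags against 2188. In both families 1 hairpin was higher, with 98.7% of the sirtuin tags at PD60 in SIRT1 TRCN0000018979 and 96.6% of the HDAC tags in HDAC2 TRCN0000004823. At PD45 the median was -2.44 for these hairpins, against -1.32 for the sirtuins, but the HDAC hairpins also started lower, with a median of 665 tags against 1429.

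Known partners or substrates of sirtuins were represented by 57 hairpins against 11 genes: EP300, KAT2B, KAT5, MYST1, SUV39H1, DNMT1, PARP1, SMARCA5, SETD8, DDB1 and AOF2. RELA, also on the list, had no hairpin found whose named target was exactly that gene. Of the 57, 49 (86.0%) were over 2-fold lower at PD60, against 95.3% of all hairpins, and 7 (12.3%) were higher, against 2.28%, without a test of that difference. The list was drawn up with earlier results of these data known, so the difference cannot be read as a trait of sirtuin partners. Their median log2 fold change was -5.49, against -5.86 for all hairpins. The 7 were 2 each against EP300, DDB1 and AOF2 and 1 against MYST1, the older name of the acetyltransferase KAT8. The highest was AOF2 TRCN0000046071, against the lysine demethylase KDM1A, with 111027 tags at PD60 against 2913 at PD40. The lowest was SUV39H1 TRCN0000150622, against an H3K9 methyltransferase that SIRT1 deacetylates, with 7 tags against 8725.

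For each sirtuin gene the closest of 630 other genes was found from the mean log2 fold changes at the 4 later times, by root mean square difference. The nearest were CYP27B1 to SIRT1 (0.19), HIST1H3B to SIRT2 (0.24), NR1I3 to SIRT3 (0.11), RNF2 to SIRT4 (0.16), CBX8 to SIRT5 (0.11), HIST1H2AG to SIRT6 (0.20) and PIK3CB to SIRT7 (0.09), in log2 units. No sirtuin was nearest to another. The median difference from all genes was 0.88 to 1.15 for 6 sirtuins and 1.75 for SIRT4. RNF2 had means of -0.31, -1.27, -2.73 and -5.53 at PD45, PD50, PD55 and PD60, beside -0.10, -1.07, -2.78 and -5.68 for SIRT4. All these profiles come from the same 5 columns.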

How the data were processed

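Genomic DNA of IMR90 cells was sequenced over the integrated hairpins in 50 samples, 10 plates at each of 5 population doublings, with groups taken from the titles in the labels. Per the file headers, the deposited table holds counts of tags per hairpin, 1 column per population doubling, and each column was used as given. The submitters' processing notes name Bowtie 1.0.1; how plates were combined is not given in the sources used here. From these counts, CPM, log2 fold changes with a pseudocount of 1 CPM (at least 10 tags in either column), exact 95% intervals of ratios and a floor of 3 tags for bounds were computed in Python 3.11.15 (scipy 1.17.1, pandas 2.3.3, numpy 2.4.6). Scaling factors came from edgeR 4.0.16 and DESeq2 1.42.0 in R 4.3.3, and no p-value was computed. Calls and intervals were tested only on simulated Poisson counts in which most hairpins did not change. That setting lacks the library-wide loss and the dependent PCR tags of these data, so the test does not cover them. All sirtuin hairpins are named, as are the nearest gene to each sirtuin by profile and the highest and lowest hairpin of each compared list. Members and lists were chosen with earlier results of these data known. No hairpin sequence was used here.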

Additional observations from a re-analysis of the deposited data

How the results depend on the processing

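No paired analysis was possible because the plates have no columns of their own. Each population doubling has 1 column, and how its plates were combined is not given. Of the 37 sirtuin hairpins, 36 were over 2-fold lower and 1 higher at PD60. Under the 9 other settings tried, 24 to 36 (64.9% to 97.3%) were lower, against 64.4% to 95.3% of all hairpins. The number higher was 6 (16.2%, against 18.8% of all hairpins) with TMM factors and 8 (21.6%, against 19.3%) with DESeq2's size factors, and 1 under the other 7. The median log2 fold change, -6.35, stayed negative throughout. It was -2.46 with TMM factors, -2.55 with DESeq2's size factors, -7.15 with a pseudocount of 0.5 CPM and -3.93 with one of 10 CPM. It was -4.80 with PD55 as the end point and -4.84 for the mean of the late over the mean of the early columns. The hairpins at 0 tags, 13 at PD60, were 5 at PD55; thinning to equal depth leaves the PD60 column, the smallest, as it is. Chosen after seeing the data were the settings without SIRT1 TRCN0000018979, and gene means at earlier times without each hairpin or under other scalings. The family's share at PD60 was 1.62 times that at PD40, and 0.0225 times without that hairpin. The mean of SIRT1, -4.22, was 4.23 when taken as the log2 ratio of summed CPM, since TRCN0000018979 holds nearly all of that sum. No other gene mean at PD60 changed sign under its alternatives. At earlier times several did: SIRT4 as given above, and also 0.22 at PD45 without the 50 most abundant hairpins in the totals, and up to 0.45 at PD45 and 0.05 at PD50 without 1 hairpin. With TMM factors SIRT2 was 0.37 at PD50 and 0.17 at PD55, SIRT3 0.13 at PD55 and SIRT1 0.54 at PD55, and with DESeq2's size factors SIRT1 was 0.16 at PD55. At PD60, 25 of 37 hairpins had under 10 tags, so late ratios of single hairpins are imprecise.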

Other observations

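Detection of some sirtuin hairpins was not continuous. SIRT5 TRCN0000018543 had 4 tags at PD50, 0 at PD55 and 10 at PD60. SIRT5 TRCN0000018545 had 16, 0 and 2 tags at the same times. SIRT6 TRCN0000050475 had 0 tags at PD50, 1 at PD55 and 0 at PD60. When the 4 earlier columns were thinned to the total of PD60, 37 of 37 sirtuin hairpins were detected at PD40 and PD45, 35 at PD50 and 32 at PD55, against 24 in the PD60 column itself.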
